A study of Mus musculus with 8 samples.

Results

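The Eya, Six-family and Dach1 regulators were measured in RNA from co-cultures of tumour cells with MC3T3-E1, an osteoblast line that came from the skull of the mouse. They were the 8 genes Eya1, Eya2, Eya3, Eya4, Six2, Six4, Six5 and Dach1, taken as every non-control array probe that carries one of these gene names. The family was selected on the MRK-003 differences in Jagged1 co-cultures, where Eya1 had been noticed among the larger rises, so values of that comparison are given as a description. The members are 8 of 27962 gene names on the array and have 15 of its 41174 probes, of which 13, for 7 of the 8 genes, passed the filter on dim probes that left 33060 probes. The 4 groups were osteoblasts with Jagged1-overexpressing tumour cells under MRK-003, osteoblasts with Jagged1-overexpressing tumour cells under DMSO, osteoblasts with vector tumour cells under MRK-003, and osteoblasts with vector tumour cells under DMSO. Each group had 2 biological replicates on 1 array each, so the number of arrays limits the precision of every value. Jagged1 is a membrane-bound ligand of Notch receptors, MRK-003 blocks gamma-secretase, an enzyme without which activated Notch receptors are not cut free from the membrane, and DMSO is its solvent. The design asks which osteoblast genes respond to tumour-cell Jagged1 and which of those responses depend on Notch. All osteoblasts were of 1 established line. Which tumour line was used, from which species, and whether the 2 kinds of cell were parted before lysis is not given in the labels.

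Eya proteins are transcriptional coactivators that also carry a phosphatase domain. They lack a DNA-binding domain of their own and are brought to genes by Six-family proteins, which are homeodomain transcription factors. Dach proteins are Ski-related corepressors that can act in the same complexes, and the network they form with Pax factors was first described in the fly eye and is known in mammals from the kidney, the inner ear, skeletal muscle and the skull. In Notch signalling the released receptor fragment joins the DNA-binding protein RBPJ and switches on repressors such as Hey1.

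The array reads each gene through 60-base probes, placed by the authors' annotation on mouse build mm7. Eya1 was read at chr1:14351185-14351244 (probe 1) and at chr1:14352764-14352823 (probe 2), both on the minus strand. Within a gene, probes are numbered here by their mean Cy3 brightness, the brightest first. Eya4, also on the minus strand, was read at chr10:22859936-22859995 (probe 1), chr10:22861052-22861111 (probe 2) and chr10:22868394-22870681 (probe 3). Eya4 probe 3 covers a span of 2288 bases with 60 bases of sequence, so it crosses at least 1 exon junction and reads spliced RNA. It is shown because it was lower with Jagged1 tumour cells in DMSO. There limma did not call it (adjusted p = 0.623), and did so only with the slide as a replicate block (adjusted p = 0.0108). With that block and the local background as deposited it was not called. Beside it stand the junction-crossing probes of Eya3 (chr4:132048635-132051334, plus strand) and Dach1 (chr14:92183226-92191932, minus strand), for which no comparison passed the test in either fit.
Eya4 probe 3: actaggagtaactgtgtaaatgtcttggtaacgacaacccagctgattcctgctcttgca
Eya3 probe 3: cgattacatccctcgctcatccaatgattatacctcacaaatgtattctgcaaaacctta
Dach1 probe 1: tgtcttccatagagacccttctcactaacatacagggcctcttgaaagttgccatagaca

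The RefSeq promoter table of build GRCm38.p6, which gives 250 bases before and 50 after a transcript start, held 8 promoters for 6 of the members (Eya3, Eya4, Six2, Six4, Six5 and Dach1). They were searched on both strands because the comparison bears on Notch. The RBPJ core GTGGGAA was in 0 of the 8 promoters and in 6.38% of all 32851 promoters of that length. The N box CACNAG, a site described for Hes repressors, was in 5 of the 8 and in 42.5% of all. Both Eya4 promoters overlap and hold the same N box, so by gene it was in 4 of 6 (Eya3, Eya4, Six5 and Dach1). Eya1 and Eya2 had no promoter there and were not searched. The MEF3 core TCAGGTT, a site bound by Six-family proteins, was in 1 of the 8, a Six4 promoter, and in 4.07% of all. The class B E box CACGTG and the class C site CACGCG, both bound by factors of the Hes and Hey family, were in 0 of the 8, against 7.15% and 9.27% of all. The Eya4 promoter at chr10:23349841-23350140, minus strand, is printed because the Eya4 probes lie lower together in Jagged1 DMSO co-cultures. Its capitals mark the N box, read here as its reverse complement, with its first base 54 bases before the start.
Eya4 promoter: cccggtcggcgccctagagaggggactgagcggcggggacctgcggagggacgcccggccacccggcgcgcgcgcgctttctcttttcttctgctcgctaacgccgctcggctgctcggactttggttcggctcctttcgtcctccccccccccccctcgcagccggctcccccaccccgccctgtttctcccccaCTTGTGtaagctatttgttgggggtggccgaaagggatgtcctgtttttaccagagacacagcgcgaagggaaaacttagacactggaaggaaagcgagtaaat

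Levels are given as the log2 ratio of co-culture RNA (Cy3) to a pooled mouse reference RNA (Cy5), where 0 is an equal normalised signal in both channels. The dyes were not swapped, so dye bias stays in a level but not in a difference between groups, and levels of different probes are not set against each other. Replicate 1 of every group shared 1 slide and replicate 2 the other. The median Cy3 signal was 164.74 to 203.63 on the slide 1 arrays and 76.5 to 117.23 on the slide 2 arrays, and 71.4% to 89.4% of spots per array were well above background in Cy3. Hey1, the check of the treatment, had levels of -2.11 and -2.12 in Jagged1 MRK-003, 3.29 and 3.05 in Jagged1 DMSO, -2.68 and -2.17 in vector MRK-003, and -0.61 and -0.56 in vector DMSO. The brighter Jag1 probe averaged 2.04 ± 0.07 in Jagged1 MRK-003 and 3.32 ± 0.02 in Jagged1 DMSO, against 1.92 ± 0.13 in vector MRK-003 and 2.05 ± 0.15 in vector DMSO (SD, n = 2 each). The tumour cells carry the extra Jagged1 and their share of the RNA is not known, so this probe does not check the labels. The 9 osteoblast markers that the array names, of 10 listed (such as Runx2, Sp7 and Col1a1), were well above background on every array. Muscle markers averaged -0.58 to -0.52 in Jagged1 MRK-003, -0.14 to 0.03 in Jagged1 DMSO, -0.62 to -0.54 in vector MRK-003 and -0.59 to -0.51 in vector DMSO on the log2 ratio scale. Between Jagged1 DMSO and vector DMSO the median difference of the 8 kept muscle markers was 0.18, beside -0.0083 for all genes. In that comparison 7 of the 8 were above 0, and only Cdh15 was called, in either fit. Of the muscle genes, Cdh15 (M-cadherin) was higher by 2.97 ± 0.19 in Jagged1 DMSO than in vector DMSO (SE, limma adjusted p = 0.00916), while the level of Myod1, the muscle master regulator, lay between -0.34 and -0.04 on all arrays. With MRK-003 in Jagged1 co-cultures, 6 of the 9 osteoblast markers were above 0. Col1a1, Col1a2 and Sparc were below it (-0.42, -0.53 and -0.39). Runx2 and Bglap1 were higher by 0.83 ± 0.23 and 0.61 ± 0.16 (SE). With the replicate block limma called these 2 of the 9 (adjusted p = 0.0379 and 0.0142), where it called 8.79% of all probes. Without the block limma called 0 of the 9 (adjusted p = 0.179 and 0.147 for these 2), where it called 1.62% of all probes. Averages of the 6 kept epithelial markers lay between -3.04 and -2.92 in Jagged1 MRK-003, -2.93 and -2.75 in Jagged1 DMSO, -3.02 and -2.88 in vector MRK-003, and -3.12 and -3.03 in vector DMSO, and Cdh1 (E-cadherin) did not pass the filter. All 6 were above 0 with Jagged1 in DMSO (median 0.21) and all 6 below 0 with MRK-003 in Jagged1 co-cultures (median -0.12), with 0 called in either fit. Averages lay between -3.36 and -3.08 for macrophage genes and -1.14 and -0.75 for neural genes. The part of these markers in the results was not tested. In such bulk RNA, fewer cells of a type and less RNA per cell cannot be told apart.

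Eya1 had its lowest levels in Jagged1 DMSO co-cultures and its highest in both MRK-003 groups. Eya1 probe 1 had levels of 2.80 and 3.28 in Jagged1 MRK-003, 1.34 and 1.50 in Jagged1 DMSO, 2.84 and 3.25 in vector MRK-003, and 2.32 and 2.64 in vector DMSO (replicates 1 and 2). The group means were 3.04 ± 0.34, 1.42 ± 0.11, 3.05 ± 0.29 and 2.48 ± 0.22 in the same order of groups (SD, n = 2 each). Both Jagged1 DMSO arrays lay below all 6 others, and the MRK-003 groups overlapped each other. Probe 2, which lies 1519 bases from probe 1 on the genome, had levels of 1.18 and 1.95 in Jagged1 MRK-003, 0.31 and 0.35 in Jagged1 DMSO, 1.05 and 1.90 in vector MRK-003, and 0.69 and 1.06 in vector DMSO. Its Jagged1 DMSO arrays were also the lowest of the 8, and its vector DMSO and vector MRK-003 arrays overlapped. In unnormalised mean Cy3 signal, probe 1 gave 609 to 4583 units over the 8 arrays and probe 2 gave 75.0 to 319, both well above background on all 8.

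Eya4 was low in Jagged1 DMSO and similar in the other 3 groups by all 3 of its probes. Eya4 probe 1 had levels of 1.29 and 2.01 in Jagged1 MRK-003, 0.93 and 1.08 in Jagged1 DMSO, 1.62 and 2.05 in vector MRK-003, and 1.61 and 1.79 in vector DMSO. Probe 2 had 1.67 and 2.23 in Jagged1 MRK-003, 1.15 and 1.31 in Jagged1 DMSO, 1.77 and 2.27 in vector MRK-003, and 1.89 and 2.21 in vector DMSO. Probe 3 had 1.23 and 1.69 in Jagged1 MRK-003, 0.72 and 1.13 in Jagged1 DMSO, 1.37 and 1.79 in vector MRK-003, and 1.36 and 1.85 in vector DMSO. For each Eya4 probe, both Jagged1 DMSO arrays lay below the 6 other arrays, and the other 3 groups overlapped one another. The MRK-003 arrays of slide 2 were 0.42 to 0.71 above those of slide 1 for these probes, so the slides differed by as much as several of the group means.

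**Figure D1:**
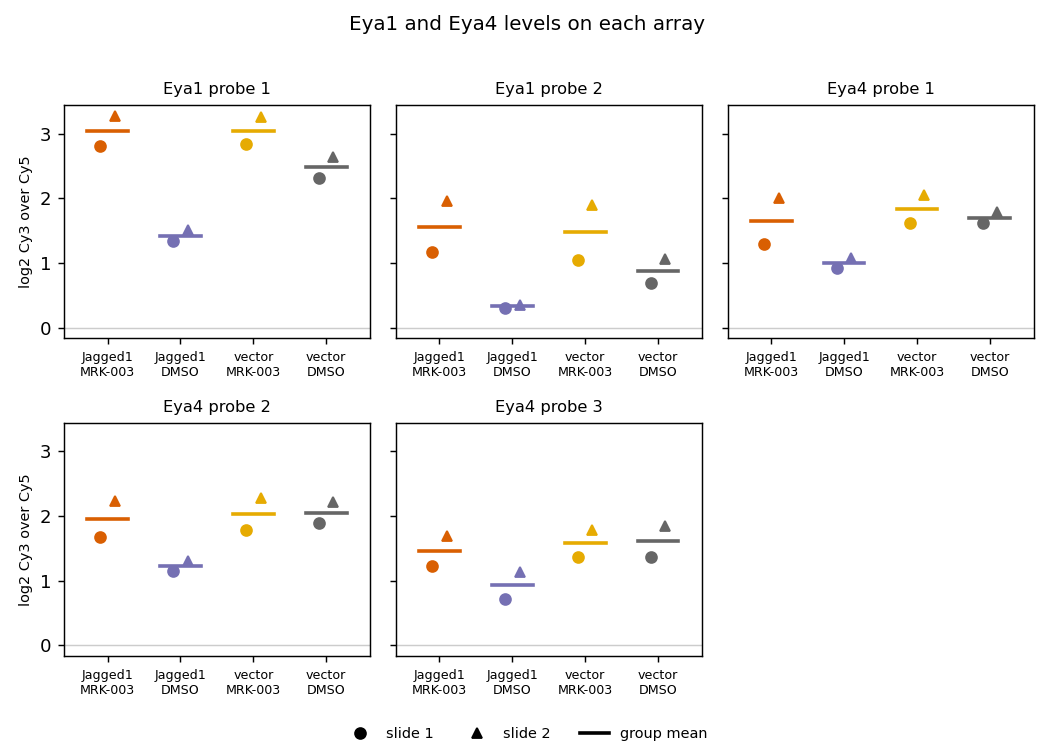
Levels of the 2 Eya1 probes and the 3 Eya4 probes on each array, as the log2 ratio of Cy3 over Cy5, by group; circles are slide 1, triangles slide 2 and bars the mean of the 2 arrays. In each panel both Jagged1 DMSO arrays lie below the other 6 arrays.

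The first question was what Jagged1 on the tumour cells did to the members in the solvent, where Notch can signal. Eya1 and Eya4 were lower with Jagged1 than with vector tumour cells, and the other members differed by at most 0.29 on the log2 scale in either direction. Eya1 probe 1 was lower by a log2 difference of -1.06 ± 0.22 (SE, n = 2 per group), which makes it 2.08-fold lower, with differences of -0.98 within slide 1 and -1.13 within slide 2. The fit without slides did not call it (limma, adjusted p = 0.202), and the limma fit with the slide as a replicate block did (adjusted p = 0.00509). For Eya4, probe 1 was lower by -0.70 ± 0.25, probe 2 by -0.83 ± 0.24 and probe 3 by -0.68 ± 0.26, with limma adjusted p = 0.582, 0.435 and 0.623. With the replicate block the limma adjusted p was 0.0539 for probe 1, 0.0170 for probe 2 and 0.0108 for probe 3, so 2 of the 3 Eya4 probes passed. These block calls were made with the local background limited (a processing step). With the local background as deposited and the same block, Eya1 probe 1 was lower by -1.36 with limma adjusted p = 0.0550. The limma count was then 0 of 13 member probes beside 76 of all probes. The block was not combined with the other processing alternatives. Eya1 probe 2 was lower by -0.54 ± 0.34 (adjusted p = 0.805, and 0.185 with the block), without overlap between the groups.

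In that comparison the limma test called 0 of the 13 member probes, where it called 0.148% of all probes. Before adjustment the limma p was under 0.05 for 2411 of all 33060 probes. Among the members it was so for Eya1 probe 1 (0.00198) and for Eya4 probes 1, 2 and 3 (0.0286, 0.0121 and 0.0355). With the replicate block it called 3 of 13, all lower (Eya1 probe 1 and Eya4 probes 2 and 3), where it called 3.06% of all probes and 1.95% of all probes as lower. These 3 probes belong to 2 genes and are not independent. The 2 groups did not overlap for 5 member probes that were lower and 3 that were higher, against 22.9% and 18.6% of all probes. The median difference of the 13 probes was 0.0031, beside -0.0149 for all probes. The Jagged1 DMSO arrays also served the comparison on which the family was selected (MRK-003 in Jagged1 co-cultures). The lower Eya1 and Eya4 levels here, and the block calls of their probes, are therefore not separate evidence from the values given there.

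Without the overexpressed Jagged1, MRK-003 was compared with DMSO in vector co-cultures. The members were chosen on another comparison, though with earlier results of all 8 arrays known. Eya1 was higher under MRK-003 by both probes and Six4 and Six5 were lower, but no member passed the test. Eya1 probe 1 was higher by 0.57 ± 0.22 (SE, n = 2 per group), 1.48-fold, on both slides (0.52 and 0.62) and without overlap between the groups. Its limma p was 0.0349 before adjustment, 1.00 after it, and 0.191 with adjustment and the replicate block. Eya1 probe 2 was higher by 0.60 ± 0.34, with overlap. Eya4 probes 1, 2 and 3 differed by 0.13 ± 0.25, -0.03 ± 0.24 and -0.03 ± 0.26. The 95% interval of the Eya4 probe 2 difference was -0.60 to 0.55 in the fit without slides (SE 0.24, and 0.12 with the replicate block). With 2 arrays per group, that fit does not exclude a difference within these bounds.

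The limma test called 0 of the 13 member probes in vector co-cultures under MRK-003 and 0% of all probes. Before adjustment the limma p was under 0.05 for 1228 of all 33060 probes, and among the members for Eya1 probe 1 (0.0349) and Six4 (0.0406). The replicate block called 0 of the 13 and 0.00302% of all probes. The groups did not overlap for 1 higher and 3 lower member probes, beside 12.7% and 12.8% of all probes. The median difference was -0.03 for the members and -0.0031 for all probes.

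In Jagged1 co-cultures MRK-003 was compared with DMSO, the comparison that drew attention to Eya1, so its values and counts are a description and support nothing. Eya1 probe 1 was 1.62 ± 0.22 higher with MRK-003 (SE, 3.06-fold), 1.46 within slide 1 and 1.77 within slide 2. Probe 2 was 1.23 ± 0.34 higher, 0.86 and 1.60 within the slides. The 3 Eya4 probes were higher by 0.65 ± 0.25, 0.73 ± 0.24 and 0.53 ± 0.26. All 5 Eya1 and Eya4 probes were higher without overlap between the groups, and Six4, Six5 and Eya3 probe 1 were lower without overlap (23.9% and 20.6% of all probes did so in each direction). Of the 13 member probes, 1 was called, Eya1 probe 1, where 1.62% of all probes were called (0.771% as higher). The count was 6 of 13 with the replicate block (the 5 Eya1 and Eya4 probes as higher and Six4 as lower), where 8.79% of all probes were called (5.22% higher and 3.57% lower), 1 of 13 with the block and the local background as deposited (Eya1 probe 1), where 484 of all probes were called, and 0 without either Jagged1 MRK-003 array or either Jagged1 DMSO array. Nothing is read from these counts, since the comparison chose the members. The median difference was 0.01 for the members and 0.0098 for all probes.

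Under MRK-003, Jagged1 tumour cells were compared with vector tumour cells, which asks what is left of the Jagged1 difference when gamma-secretase is inhibited. The differences of the 13 member probes lay between -0.18 (Eya4 probe 1) and 0.17 (Six2). In the fit without slides Eya1 probe 1 differed by -0.0066 ± 0.22 (SE), with a 95% interval of -0.52 to 0.51. With the replicate block its SE was 0.10. Its arrays overlapped between the groups. Eya4 probes 1, 2 and 3 differed by -0.18 ± 0.25, -0.07 ± 0.24 and -0.12 ± 0.26. The limma test called 0 of 13 probes here and 0% of all probes, also with the replicate block. Before adjustment 80 of all 33060 probes, and no member probe, had a limma p under 0.05. The groups overlapped for all 13 member probes, while 8.46% of all probes were higher and 7.68% lower without overlap.

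The effect of MRK-003 in Jagged1 co-cultures minus that in vector co-cultures was 1.05 ± 0.30 for Eya1 probe 1 (SE), 0.94 within slide 1 and 1.16 within slide 2. For Eya1 probe 2 it was 0.63 ± 0.48, and for Eya4 probes 1, 2 and 3 it was 0.52 ± 0.36, 0.75 ± 0.34 and 0.56 ± 0.37. It was above 0 on both slides for each of these 5 probes. The other 8 member probes lay between -0.24 and 0.04. It is a description, as it contains the comparison that drew attention to Eya1, and 0 of 13 member probes were called by limma beside 0% of all probes (with the replicate block 0 of 13 beside 0.278%).

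**Figure D2:**
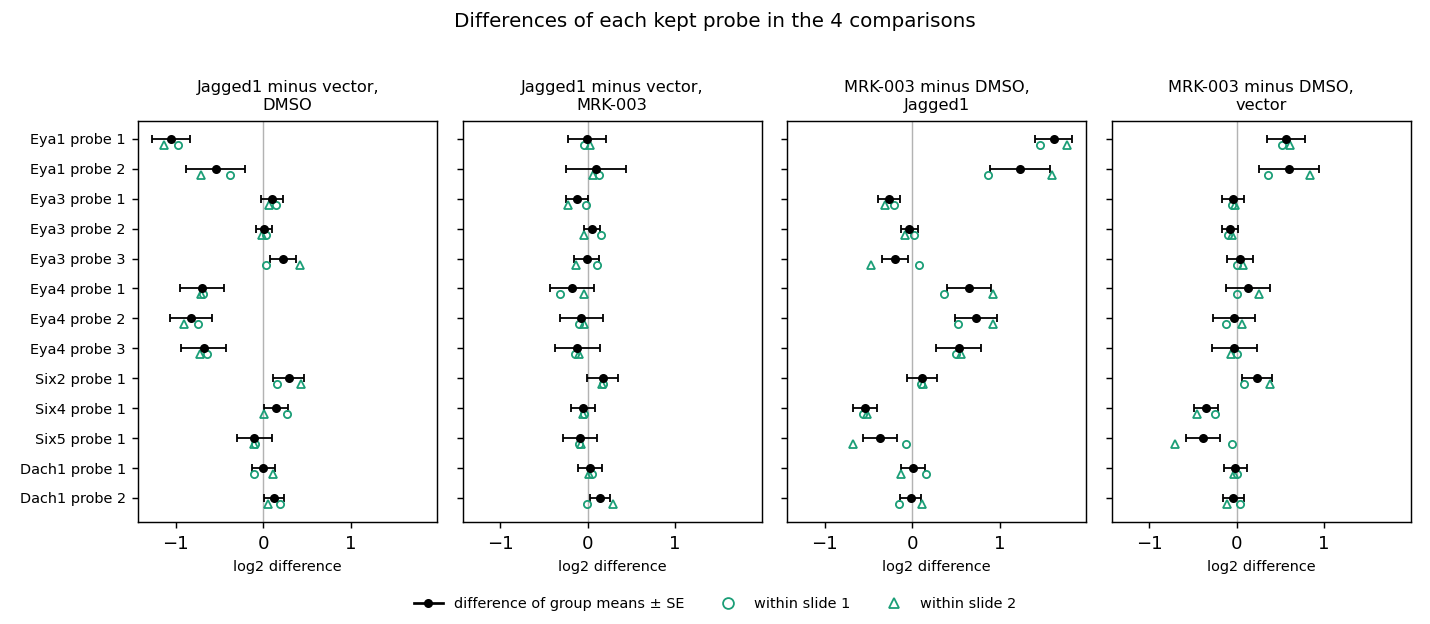
Log2 differences of the 13 kept probes in the 4 comparisons, as each panel title names them; black points are differences of group means with their standard errors, green circles and triangles the differences within slide 1 and slide 2. Eya1 probe 1 stands at -1.06, -0.0066, 1.62 and 0.57 in the panels, left to right.

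Eya2 and Eya3 are the other Eya family members. The Eya2 probe (chr2:165509915-165509974, plus strand) was well above background on 3 of 8 arrays in Cy3 and never on both of a group, so it did not pass the filter. Its mean Cy3 signal was 35.2 to 45.3 units over the 8 arrays, while the reference RNA gave 181 to 346 units on the same spots. Eya2 thus has no level that could be compared between the groups. Eya3, the most widely expressed member of the family, was read by 4 probes, 1 of which was well above background on 2 arrays and did not pass.

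The 3 kept Eya3 probes had group means between -0.28 and 0.20. Eya3 probe 1 had levels of -0.30 and -0.26 in Jagged1 MRK-003, -0.09 and 0.05 in Jagged1 DMSO, -0.28 and -0.04 in vector MRK-003, and -0.23 and -0.01 in vector DMSO. With MRK-003 it was 0.26 lower in Jagged1 co-cultures on average, and this was the largest absolute difference of any Eya3 or Dach1 probe in the 5 comparisons (0.55 with the scanner software's processed signals). Eya3 probes 2 and 3 overlapped between Jagged1 MRK-003 and Jagged1 DMSO.

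Among the Six-family factors, which carry Eya proteins to DNA, Six4 and Six5 were lower in both MRK-003 groups and Six2 differed little. Six4 (chr12:71051166-71051225, minus strand) averaged -0.11 ± 0.15 in Jagged1 MRK-003, 0.43 ± 0.18 in Jagged1 DMSO, -0.06 ± 0.14 in vector MRK-003 and 0.29 ± 0.0042 in vector DMSO (SD, n = 2 each). Its 4 MRK-003 arrays all lay below its 4 DMSO arrays, the highest MRK-003 value being 0.04 and the lowest DMSO value 0.29. The MRK-003 difference was -0.54 ± 0.14 in Jagged1 co-cultures, given as a description, and -0.35 ± 0.14 in vector co-cultures (SE), where the limma p was 0.0406 before adjustment and the limma adjusted p was 1.00. The Six4 probe was dim, at 52.9 to 155 units of Cy3, and in Jagged1 co-cultures its difference was -1.07 with the scanner software's processed signals and -0.24 with the local background as deposited.

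Six5 (chr7:16780462-16780521, plus strand), whose human counterpart lies beside the myotonic dystrophy kinase gene, had levels of 0.08 and -0.30 in Jagged1 MRK-003, 0.15 and 0.37 in Jagged1 DMSO, 0.18 and -0.23 in vector MRK-003, and 0.24 and 0.48 in vector DMSO. Its MRK-003 difference was -0.37 ± 0.20 in Jagged1 co-cultures and -0.38 ± 0.20 in vector co-cultures (SE), but on slide 1 it was -0.07 and -0.06, and on slide 2 it was -0.67 and -0.71. In vector co-cultures the adjusted limma p of Six5 was 1.00.

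Six2, known for keeping kidney progenitors undifferentiated, had levels of 1.48 and 1.30 in Jagged1 MRK-003, 1.37 and 1.18 in Jagged1 DMSO, 1.30 and 1.13 in vector MRK-003, and 1.22 and 0.76 in vector DMSO. Adjacent groups in that order overlapped. Jagged1 in DMSO differed from vector by 0.29 ± 0.17 (adjusted p = 0.798 by limma). With Cy3 alone the sign turned, to -0.39. The reference RNA on the same spots gave 999 and 759 units of Cy5 on the Jagged1 DMSO arrays and 1513 and 1185 on the vector DMSO arrays, before normalisation.

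Dach1, the corepressor, had levels between 0.04 and 0.37 on all arrays by its 2 probes. Dach1 probe 1 averaged 0.24 ± 0.18 in Jagged1 MRK-003, 0.23 ± 0.02 in Jagged1 DMSO, 0.21 ± 0.15 in vector MRK-003 and 0.23 ± 0.13 in vector DMSO (SD, n = 2 each). Its differences lay between -0.01 and 0.03, and those of probe 2 (well above background on 6 of 8 arrays) between -0.04 and 0.14. Both probes were dim, with 39.2 to 107 units of Cy3. In the fit without slides the 95% interval with MRK-003 in vector co-cultures was -0.34 to 0.31 for probe 1. For probe 2 it was -0.32 to 0.24, so a Dach1 difference within these bounds is not excluded.

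**Figure D3:**
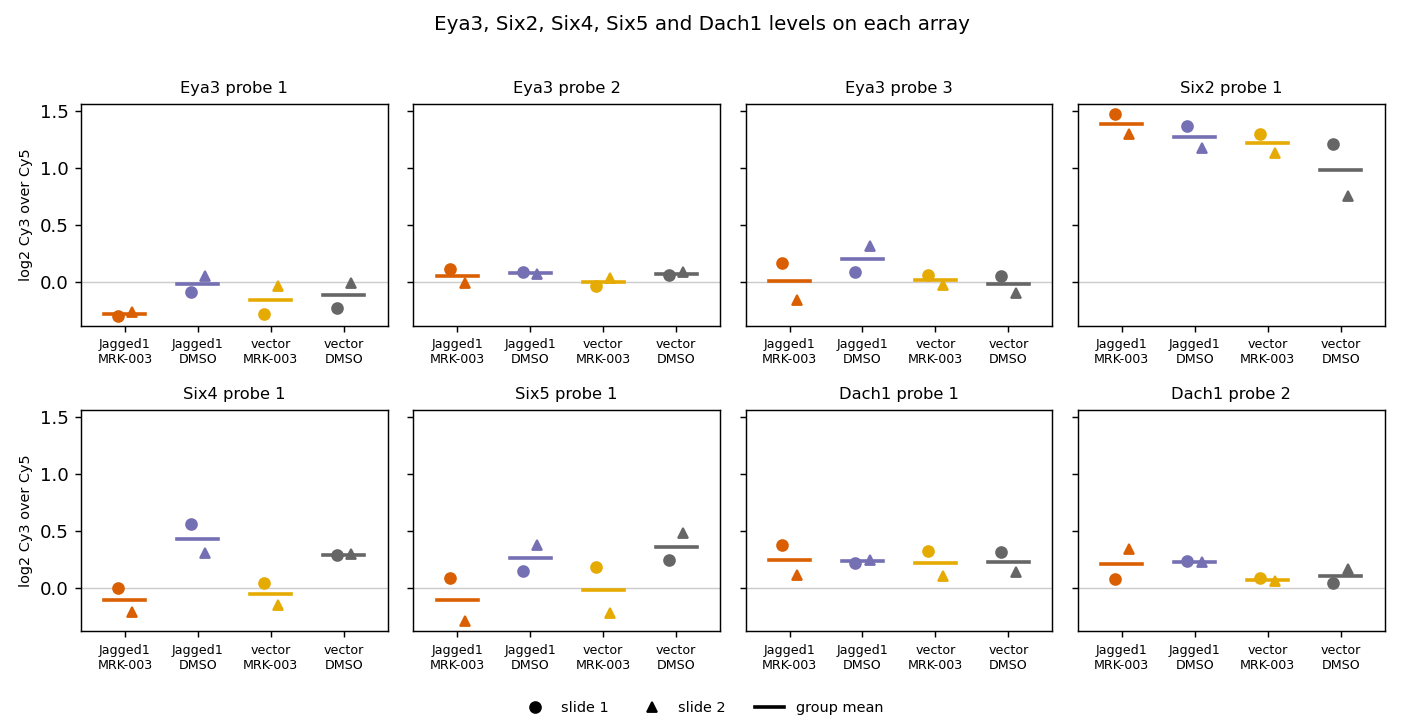
Levels of the kept Eya3, Six2, Six4, Six5 and Dach1 probes on each array, as the log2 ratio of Cy3 over Cy5, by group; circles are slide 1, triangles slide 2 and bars the mean of the 2 arrays. The Six4 panel shows the 4 MRK-003 arrays at or below 0.04 and the 4 DMSO arrays at or above 0.29.

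The levels of other genes over the 8 arrays were set beside those of Eya1 probe 1 to find the most alike patterns among 18872 genes. The highest Pearson correlations were those of Ppm2c, now named Pdp1, a phosphatase that activates pyruvate dehydrogenase (r = 0.999), Mmachc, which processes vitamin B12 (0.996), the zinc transporter Slc30a4 (0.995), Plscr2 of the phospholipid scramblase family (0.994) and the adhesion molecule Vcam1 (0.993). The lowest were those of the chondroitin sulfotransferase Chst3 (-0.996), the transmembrane protein Tmem41a (-0.996), the basement membrane collagen chain Col4a2 (-0.993), the phosphodiesterase Pde2a (-0.992) and the procollagen protease Bmp1 (-0.991). All values rest on 8 arrays in 4 groups that share slides and a reference RNA, and they are a description. Vcam1 had levels of 1.38 and 1.77 in Jagged1 MRK-003, -0.12 and 0.27 in Jagged1 DMSO, 1.44 and 1.70 in vector MRK-003, and 0.95 and 1.29 in vector DMSO. Bmp1 showed the opposite order, with 0.92 and 0.23 in Jagged1 MRK-003, 2.71 and 2.37 in Jagged1 DMSO, 0.69 and 0.27 in vector MRK-003, and 1.74 and 1.09 in vector DMSO.

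Among the members, the second Eya1 probe had r = 0.938 with the first, at percentile 97.7 of the genes compared. The Eya4 probes had 0.889, 0.884 and 0.812, at percentiles 95.1, 94.8 and 90.5. Six4 ran against Eya1 with r = -0.905, at percentile 2.53. The 3 Eya3 probes had -0.47, -0.50 and -0.67, Six5 had -0.599, the Dach1 probes had -0.26 and -0.21, and Six2 had -0.08.

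**Figure D4:**
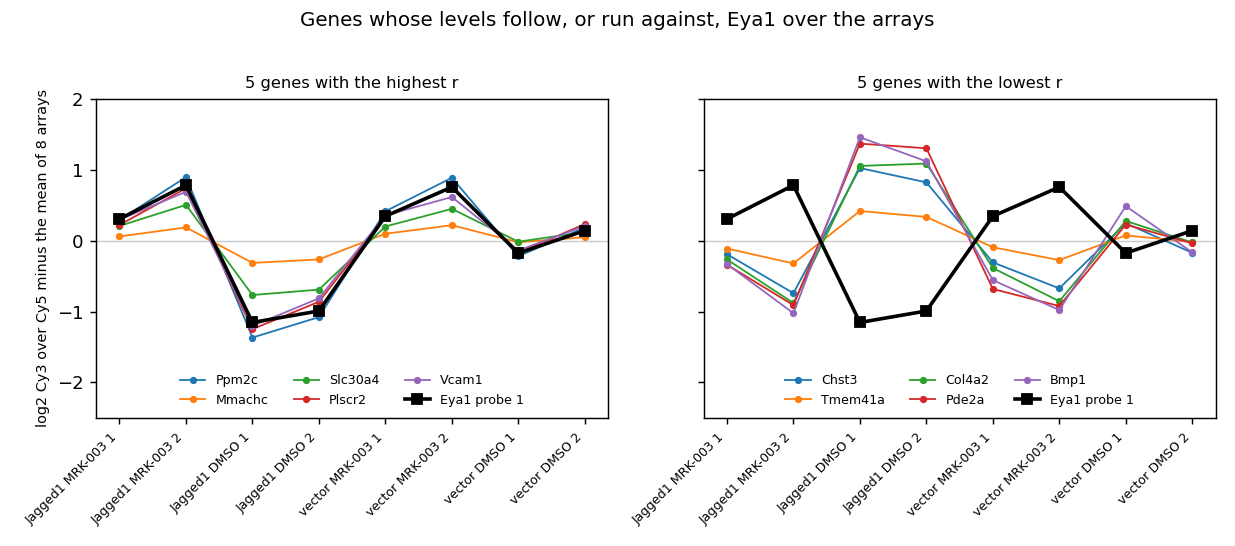
Levels of Eya1 probe 1 (black squares) and of the 5 genes with the highest (left) and the lowest (right) Pearson r to it, as log2 Cy3 over Cy5 minus each gene's mean over the 8 arrays. Eya1 is lowest on both Jagged1 DMSO arrays, where the 5 genes on the right are highest.

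The partners of the family in the retinal determination network, such as Six3, Dach2 and the Pax, Sall and Tshz genes, gave no call without the replicate block. Of 23 listed genes 20 passed the filter, and limma called 0 of 20 in each of the 5 comparisons, while the replicate block called 1, Osr1, as higher with MRK-003 in Jagged1 co-cultures, where it called 8.79% of all probes. The family was selected on that comparison, so the Osr1 call is a description. Osr1, a zinc-finger regulator of kidney and limb mesenchyme, had levels of 1.08 and 0.67 in Jagged1 MRK-003, 0.06 and 0.17 in Jagged1 DMSO, 1.05 and 0.76 in vector MRK-003, and 1.01 and 0.46 in vector DMSO. With Jagged1 in DMSO it was lower by -0.62 ± 0.22 (SE, adjusted p = 0.576, and 0.0842 with the block). The list's median difference in that comparison was -0.0073, beside -0.0083 for all genes.

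Of 15 genes described as targets of Eya or Six-family proteins, 11 passed the filter. With Jagged1 in DMSO limma called 0 of 11, and the replicate block called 1, Igfbp5, a binding protein of insulin-like growth factors, as higher (2.06 ± 0.25, SE, adjusted p = 0.0570, and 0.00768 with the block), where the fits called 0.148% and 3.06% of all probes. With MRK-003 in Jagged1 co-cultures limma called 1 as higher and 1 as lower, in both fits: the cyclin Ccnd1 was higher by 0.76 ± 0.12 (adjusted p = 0.0424) and Igfbp5 was lower by -2.51 ± 0.25 (adjusted p = 0.0127). The fits called 1.62% and, with the block, 8.79% of all probes there. The family was selected on that comparison, and the target list was chosen with earlier results known, so these calls are a description. Jagged1 in DMSO shares the Jagged1 DMSO arrays with it. Ccnd1 was lower by -0.50 ± 0.12 with Jagged1 in DMSO, where it did not pass (adjusted p = 0.311, and 0.0529 with the block). Medians of the 11 targets were 0.05 with Jagged1 in DMSO and 0.06 with MRK-003 in Jagged1 co-cultures, beside -0.0083 and 0.01 for all genes. In the other 3 comparisons 0 of 11 were called.

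Of 17 listed cofactors of the Six-family, Eya or Dach proteins, such as Ski, Ncor1, Sin3a, Ep300 and the Tle corepressors, 15 were measured, and 0 of 15 were called in any of the 5 comparisons, with or without the block. Tle1 differed by 0.83 ± 0.39 with Jagged1 in DMSO (SE, adjusted p = 0.731, and 0.0651 with the block). Under MRK-003 in vector co-cultures 1 of the 15 cofactors was above 0, beside 49.1% of all probes, with a list median of -0.11 beside 0.0058 for all genes. For Jagged1 against vector under MRK-003, 12 of the 15 were above 0, beside 51.1% of all probes. Both comparisons use the vector MRK-003 arrays.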

How the data were processed

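Co-culture RNA was labelled with Cy3 and Stratagene's universal mouse reference RNA with Cy5, per the labels' protocols. Spot values came from Agilent Feature Extraction 9.5.3.1 with coordinates on mm7, per the file headers. The deposited intensity values used were mean signals and median local backgrounds of both channels, unnormalised. A log2 value table that the authors deposited equalled the processed Cy3 over Cy5 plus 1 constant per array (100% of spots within 0.02), which settled its scale and direction. Its column medians were 0.18 and 0.17 (Jagged1 MRK-003), 0.16 and 0.18 (Jagged1 DMSO), 0.12 and 0.17 (vector MRK-003) and 0.12 and 0.20 (vector DMSO). The deposited log10 ratio of the same software was used only to check that direction. The deposited intensity of the processed signals served as an alternative.

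Local backgrounds were limited to the 99.9th percentile of their array, because a few spots reached 2415, 21069 and 32904 units on the Jagged1 DMSO arrays 1 and 2 and the Jagged1 MRK-003 array 2, and without the limit the spread of all log ratios shrank there to 0.877, 0.685 and 0.695 of its size. Normexp (offset 50) and loess followed, with control spots at no weight. Outlier spots were removed. Probes with Cy3 well above background on both arrays of some group were kept. limma 3.58.1 (R 4.3.3) fitted 4 group means to all 8 arrays and all 33060 probes, with Benjamini-Hochberg adjusted p under 0.05. Slide headers put replicate 1 of every group on 1 slide and replicate 2 on the other. Deviations of same-numbered arrays correlated at 0.358 to 0.848 in all 6 pairs of groups, so slide was the replicate block. The fits were tested on simulated data.

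Named with values were all members, up to 4 genes of each list by p, markers that moved beside them or define their cell type, Hey1, Jag1 and the 5 genes most and least like Eya1. Members and lists were chosen with earlier results of these data known, as was the background limit. Figures used matplotlib.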

Additional observations from a re-analysis of the deposited data

How the results depend on the processing

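The replicate numbers mark slides, and with the replicate block the count of member probes called with Jagged1 in DMSO was 3 in place of 0, while under all other alternatives it was 0. The count for MRK-003 in Jagged1 co-cultures was 6 with the block (2906 of all probes), 1 in the fit reported (537), 1 with the block and the local background as deposited (484), 0 with the scanner software's processed signals (249), 0 with the authors' deposited value table (249), 0 with Cy3 alone (204), and 0 to 1 with 1 array left out (13 to 380, and 0 without either array of Jagged1 MRK-003 or of Jagged1 DMSO). The block changed no call of a member in the other comparisons. Gene lists were fitted only with and without the block. The counts of the other 3 comparisons were 0 under every alternative run. Over all probes, Jagged1 in DMSO gave 49 calls, 1013 with the block, 76 with the block and the local background as deposited, 3 with that background alone, and 0 to 15 with 1 array left out. The cause of these shifts was not tested.

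In Jagged1 against vector in DMSO the differences kept their sign in every alternative: -1.36 to -0.90 for Eya1 probe 1, -0.76 to -0.36 for Eya1 probe 2, -0.83 to -0.61, -1.34 to -0.67 and -1.07 to -0.43 for Eya4 probes 1, 2 and 3. With MRK-003 in vector co-cultures, Eya1 probe 1 stayed between 0.36 and 0.77, and the adjusted p over its alternatives was 0.191 to 1, while leaving out 1 array moved probe 2 to between 0.17 and 1.02. Leaving out 1 array also moved MRK-003 in Jagged1 co-cultures to 0.84 to 1.62 for Eya1 probe 2 and to 0.29 to 1.00, 0.45 to 1.01 and 0.30 to 0.76 for Eya4 probes 1, 2 and 3. Jagged1 minus vector effects of MRK-003 moved to 0.81 to 1.29 and 0.21 to 1.06 for Eya1 probes 1 and 2, and to 0.16 to 0.88, 0.48 to 1.03 and 0.31 to 0.80 for the Eya4 probes. Signs turned only for small differences that were never called. Under MRK-003, Jagged1 against vector gave 0.0013 for Eya1 probe 1 with median centring, and with 1 array left out -0.24 to 0.23 for Eya1 probe 1, -0.54 to 0.18, -0.35 to 0.21 and -0.35 to 0.11 for Eya4 probes 1, 2 and 3. For MRK-003 in vector co-cultures, leaving out 1 array gave -0.0872 to 0.35, -0.28 to 0.22 and -0.27 to 0.22 for Eya4 probes 1, 2 and 3, and Cy3 alone gave 0.0822 for probe 3. With Cy3 alone, Six2 was at -0.39 (Jagged1 in DMSO) and -0.0234 (Jagged1 under MRK-003). Of the kept probes, Dach1 probe 2 was well above background on 6 of 8 arrays and the others on all 8. The local background as deposited, alone and with the block, and Cy3 alone were chosen after the data were seen.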
